A study of Mus musculus with 2 samples.

Results

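The metallothionein genes Mt1, Mt2 and Mt3 were read as 3 of the 32286 features of each count matrix, matched by gene symbol. They were chosen with their levels by cell class and their differences between the libraries already known, so these values are given as a description. All 3 had UMIs (unique molecular identifiers, each standing for 1 captured RNA molecule) in both libraries. The libraries were droplet libraries of single-cell RNA, made with the 3' v3.1 kit of 10x Genomics, from papain-dissociated optic cup of Abca4KO mice, which lack the ABCA4 transporter of photoreceptor outer segments. One library was labelled AAV2.8-GFP and the other AAV2.8-Sponge.mir181; all eyes thus carried the Abca4 knockout and an injected vector, and no uninjected or wild-type eye was among the samples. A sponge vector expresses a transcript with binding sites for a microRNA, here miR-181, and so occupies it. The series text places the subretinal injection at 2 months of age and collection 4 months afterwards, the sponge in one eye and the control vector in the other, whereas an age of 4 months stands on both samples. The number of mice pooled is not given there, and cells are not assigned to mice. With 1 library per group no difference below has a replicate check; intervals are 95% and cover counting error only.

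Metallothioneins are small cysteine-rich proteins that bind zinc and copper and also react with oxidants. Mt1 and Mt2 are made in many cell types and are induced by zinc, through the factor MTF1 at metal response elements in their promoters, by glucocorticoids and by inflammatory cytokines. Mt3 was first known from brain, where it is linked to zinc handling in neurons and astrocytes, and responds less to metals. Mt4, the remaining gene of the cluster, belongs to stratified epithelia. In the eye, metallothioneins are known from Müller glia and from the retinal pigment epithelium (RPE), a zinc-rich tissue.

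Mt3, Mt2 and Mt1 lie in this order on the plus strand of mouse chromosome 8, within 27.7 kb (GENCODE M21 on GRCm38, the same assembly as the deposited mm10). Mt3 (ENSMUSG00000031760) spans chr8:94152607-94154146, Mt2 (ENSMUSG00000031762) spans chr8:94172664-94173568 and Mt1 (ENSMUSG00000031765) spans chr8:94179082-94180327, each with 3 exons in its main transcript. The 250 bases before the RefSeq start site are printed below because Mt1 and Mt2 followed each other closely across cell classes while Mt3 did not. They are RefSeq windows of build GRCm38.p6, plus strand, and all 3 genes had one. Capitals mark the core of the metal response element, searched on both strands as TGCACNC and TGCGCNC.
Mt1 chr8:94178839-94179088: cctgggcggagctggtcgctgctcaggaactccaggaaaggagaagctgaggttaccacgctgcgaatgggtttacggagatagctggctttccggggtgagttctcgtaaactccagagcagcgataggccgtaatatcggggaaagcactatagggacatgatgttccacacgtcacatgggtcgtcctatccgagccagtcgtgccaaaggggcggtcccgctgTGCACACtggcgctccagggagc
Mt2 chr8:94172368-94172617: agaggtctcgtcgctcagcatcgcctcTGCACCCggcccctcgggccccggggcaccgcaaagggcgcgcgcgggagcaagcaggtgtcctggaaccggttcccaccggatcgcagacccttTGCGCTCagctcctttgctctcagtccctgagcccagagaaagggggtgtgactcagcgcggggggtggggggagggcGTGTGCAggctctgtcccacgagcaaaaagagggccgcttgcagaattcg
Mt3 chr8:94152357-94152606: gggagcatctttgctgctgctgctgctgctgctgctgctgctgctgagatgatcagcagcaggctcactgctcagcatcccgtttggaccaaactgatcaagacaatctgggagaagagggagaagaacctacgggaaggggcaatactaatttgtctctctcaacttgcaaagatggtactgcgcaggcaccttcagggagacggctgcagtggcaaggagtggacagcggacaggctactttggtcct

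The window of Mt2 held 3 core matches, that of Mt1 held 1 and that of Mt3 held none. At least 1 match was present in 21.4% of the 32851 RefSeq promoter windows of this length, and at least 3 in 1.26%. The RefSeq start sites lie 222 (Mt1), 230 (Mt2) and 193 (Mt3) bases upstream of the start codons. Other annotated starts lie further downstream, the last at 94179241 (Mt1), 94172860 (Mt2) and 94152746 (Mt3). The 300 bases directly before each start codon were therefore searched as well. There Mt1 held 5 core matches (chr8:94179011-94179310), Mt2 held 5 (chr8:94172548-94172847) and Mt3 held 3 (chr8:94152500-94152799). Of all RefSeq windows of 300 bases, which are placed around start sites instead, 0.143% held at least 5 and 1.97% at least 3. The antioxidant letters TGACNNNGC were matched once in the 250-base window of Mt2 and in 10.2% of all windows; the STAT letters TTCNNNGAA were matched in none of the 3 and in 7.02% of all. These are matches of letters and say nothing of binding.

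The microRNAs that the series text names as the target of the sponge, miR-181a and miR-181b, share 1 seed with the remaining members of their family. Their mature RefSeq sequences are shown with the seed, bases 2 to 8, in capitals, because a sponge would act first on transcripts that carry its complement.
mmu-miR-181a-5p: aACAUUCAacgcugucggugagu
mmu-miR-181b-5p: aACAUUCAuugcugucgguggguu
The 7 letters that pair with this seed, TGAATGT, are in no annotated 3' UTR of Mt1, Mt2 or Mt3. They are in an annotated 3' UTR of 18.1% of the 21824 genes that have one.

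The transcripts of the members can be told apart: the longest run of bases shared by the longest transcripts of Mt1 and Mt2 is 20. Gm45774, an annotated antisense gene that overlaps Mt2, had 147 UMIs in the library labelled GFP and 152 in that labelled sponge. Mt4 had 0 UMIs in the library labelled GFP, which allows a level of up to 0.0244 CPM (UMIs of a gene per 1000000 UMIs counted), and 3 UMIs in that labelled sponge. It was not analysed further.

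After filtering, 39285 cells of the library labelled GFP (median 2415 UMIs) and 23200 cells of that labelled sponge (median 2980.5 UMIs) were used, and 287 cell barcodes occurred in both. The reporter eGFP goes against the labels: it had 12 UMIs in the library labelled GFP and 5484 in that labelled sponge, so the libraries are named by their labels throughout. The cells of the optic cup were present: clusters with the fixed markers of rods, cones, bipolar cells, Müller glia and RPE were found, beside microglia and macrophages, T or NK cells, endothelium, pericytes or smooth muscle, fibroblasts, melanocytes and ocular surface epithelium. No cluster could be named amacrine, horizontal, ganglion, astrocyte or lens at this resolution. Of 10 RPE markers 9 were raised in the RPE-like cluster, and Best1 had 0 UMIs in RPE-like cells with or without eGFP of the library labelled sponge. Unnamed clusters held 32.0% and 33.5% of the cells. Mean UMIs per cell differed between the libraries within nearly every class, from 0.890 times (unnamed cluster 1) to 4.23 times (ocular surface epithelium) as many in the library labelled sponge. Fewer cells of a type and less RNA per cell cannot be told apart in a sum over all cells.

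Over all cells Mt1 was the most abundant of the 3. Its level was 1989.9 CPM (1982–1998) in the library labelled GFP and 1456 CPM (1449–1462) in that labelled sponge, with a UMI in 81.7% and 69.7% of cells. Mt2 stood at 305 and 251 CPM, and Mt3 at 118 and 52.1 CPM. In a 3' library a transcript gives its UMIs at 1 end, so these levels were not divided by length.

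The levels were then compared across 19 classes and clusters with at least 50 cells in each library, 13 of them named from markers and 6 unnamed. The clusters had been formed without the metallothionein genes. Mt1 was highest in unnamed cluster 6, whose leading genes are Grem1, Gpnmb, Acta2 and Ptx3, at 6260.1 CPM (6204–6317) in the library labelled GFP and 5382 CPM (5346–5417) in that labelled sponge. This is a cluster that meets most melanocyte markers and is led by a mix of pigment-cell and contractile genes. The RPE-like class came next, at 5400.1 CPM (5347–5453) and 3812 CPM (3767–3858). In the library labelled GFP, Müller-like cluster 9 (led by Fas, Gfap and Lcn2) followed at 3728 CPM, then fibroblasts at 3196 CPM and melanocytes at 2566 CPM. With the sponge label the order below RPE changed: fibroblasts stood at 2330.1 CPM and melanocytes at 2280.0 CPM, both above Müller-like cluster 9 at 1257 CPM. The lowest values were 636 CPM, in T or NK cells of the first library, and 256 CPM, in unnamed cluster 16 of the second. From the lowest to the highest class the Mt1 level spanned 9.84 times and 21.01 times.

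Retinal neurons had little Mt1 next to these classes. Rods had 784 CPM (764–803) in the library labelled GFP and 362 CPM (352–372) in that labelled sponge. Bipolar cells had 671 and 314 CPM, and cones 703 and 284 CPM. T or NK cells, blood-borne cells that share no lineage with the retina, had 636 CPM (569–709) and 293 CPM (249–342), an interval that touches that of the cones in both libraries. The neurons' values thus lay close to those of an unrelated class in the same library.

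Müller glia, which support neurons across the retina and take up their transmitters, formed 3 clusters that differed in metallothionein. Cluster 3, with all 13 Müller markers raised and no Gfap among its leading genes, had 778 CPM Mt1 (757–798) in the library labelled GFP and 324 CPM (312–337) in that labelled sponge. Both values lie between those of bipolar cells and rods. Cluster 9, also with all 13 markers raised and led by Gfap, a filament protein of reactive glia, and Lcn2, an acute-phase lipocalin, had 3728 CPM (3667–3790) and 1257 CPM (1233–1281). Gfap and Pax2 are also among the fixed astrocyte markers. Pax2 was 7.11 and 19.3 CPM in cluster 9, against 0.282 and 0.739 CPM in cluster 3. A share of astrocytes in cluster 9 was not tested. Cluster 23, led by the interferon-inducible genes Iigp1 and Igtp, had 327 cells in the library labelled sponge, with 1249 CPM Mt1, 200.4 CPM Mt2 and 37.4 CPM Mt3. It had only 13 cells in the library labelled GFP and was not compared.

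Mt2 had a similar order at a lower level. It stood at 865 CPM (844–886) and 901 CPM (887–916) in unnamed cluster 6, at 683 CPM (664–702) and 509.8 CPM (493–527) in RPE-like cells, and at 633 CPM (617–650.0) and 504 CPM (485–524) in fibroblasts. Müller-like cluster 9 had 600.0 CPM (576–625) and 212 CPM (202–222), against 123 CPM (115–131) and 51.3 CPM (46.5–56.5) in cluster 3. Rods had 128 and 70.3 CPM. Across 26 profiles, 13 named classes in 2 libraries, the log2(CPM + 1) of Mt1 and Mt2 had a Pearson r of 0.97. These profiles share 2 libraries and their depth, so r is a description.

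Mt3 had another order, headed by RPE-like cells alone. There it stood at 791 CPM (771–812) in the library labelled GFP and 453 CPM (438–469) in that labelled sponge, 4.93 times and 6.67 times the next class, which was Müller-like cluster 9 in both at 161 CPM (148–174) and 68.0 CPM (62.6–73.8). RPE-like cells made up 2.59% and 2.14% of cells and held 40.5% and 46.9% of all Mt3 UMIs. Neurons, in which Mt3 would be looked for from its history in brain, had 86.9 CPM (rods), 74.0 CPM (bipolar cells) and 72.6 CPM (cones) in the library labelled GFP. With the sponge label the same classes had 27.1, 27.9 and 21.7 CPM. At the bottom stood melanocytes with 49.3 CPM in the first library and ocular surface epithelium with 5.80 CPM in the second. The r of Mt3 was 0.56 with Mt1 and 0.48 with Mt2.

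**Figure D1:**
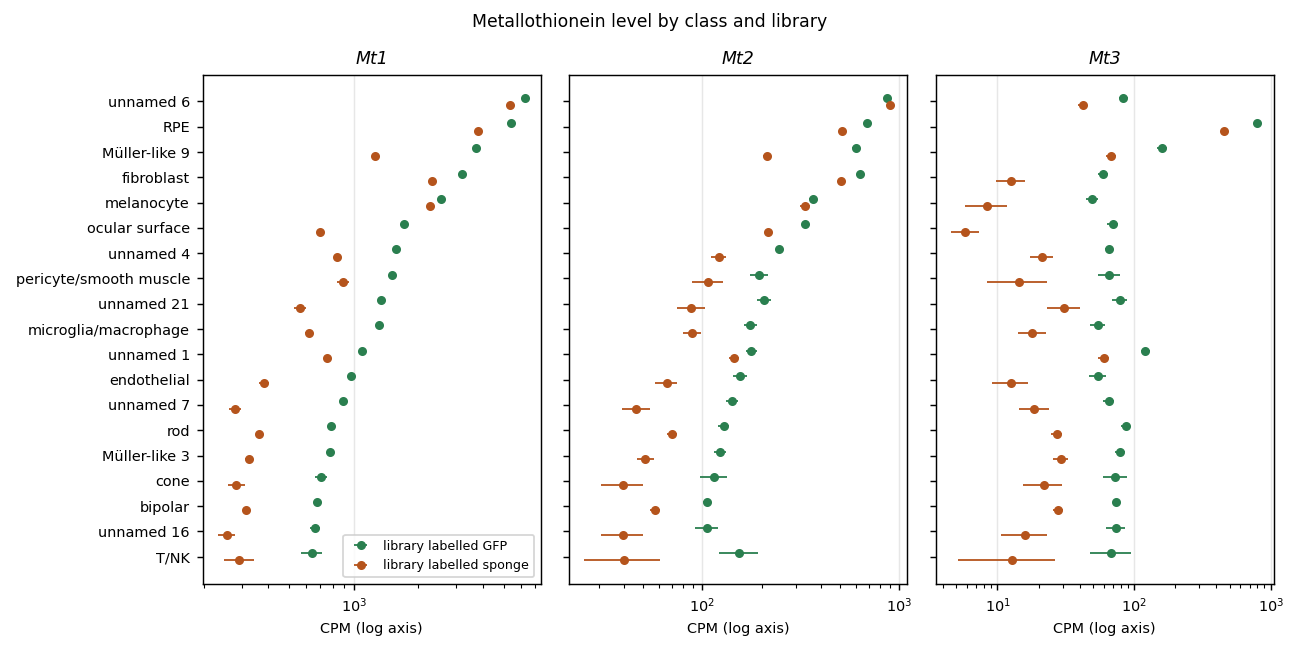
Level of Mt1, Mt2 and Mt3 in CPM (log axis) for the 19 classes and clusters, ordered by Mt1 in the library labelled GFP; points are sums over cells and bars are 95% Poisson intervals. Unnamed cluster 6 and RPE-like cells head Mt1 and Mt2, and RPE-like cells stand apart for Mt3 at 791 and 453 CPM.

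Ratios of members within a class do not depend on the scaling of a library. RPE-like cells had 7.91 Mt1 UMIs per Mt2 UMI (7.68–8.14) in the library labelled GFP and 7.48 (7.22–7.74) in that labelled sponge. Fibroblasts had 5.05 (4.90–5.20) and 4.62 (4.43–4.82), intervals that lie below those of RPE-like cells in both libraries. Rods had 6.10 and 5.14, and Müller-like clusters 3 and 9 lay between 5.93 and 6.33. The ocular surface epithelium, a keratin-rich barrier, had 5.18 (4.97–5.41) and 3.24 (3.103–3.38). The class of pericytes, the contractile cells of small vessels, or smooth muscle had 7.74 (6.94–8.66) and 8.38 (6.95–10.2), intervals that overlap those of RPE-like cells. By cluster this class had 1509 and 892 CPM Mt1 and 195 and 107 CPM Mt2. Set by each cell's highest marker score instead, it had 2474 and 2630 CPM Mt1 and 367 and 455 CPM Mt2. Its levels and this ratio thus depend on how the class is set.

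The Mt3 ratio separated the classes further. There were 1.16 Mt3 UMIs per Mt2 UMI (1.12–1.20) in RPE-like cells of the library labelled GFP and 0.889 (0.848–0.933) in those of that labelled sponge. Rods had 0.677 and 0.385, bipolar cells 0.703 and 0.486, and Müller-like cluster 3 had 0.646 and 0.564. Müller-like cluster 9 had 0.268 and 0.321, and fibroblasts 0.0935 and 0.0249. The values of rods, bipolar cells and Müller-like cluster 3 lie between those of RPE-like cells and fibroblasts, as do T or NK cells at 0.443 and 0.318. In the library labelled GFP the intervals of rods (0.613–0.747) and Müller-like cluster 3 (0.580–0.719) overlapped. With the sponge label those of rods (0.343–0.433) and Müller-like cluster 3 (0.478–0.663) did not.

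**Figure D2:**
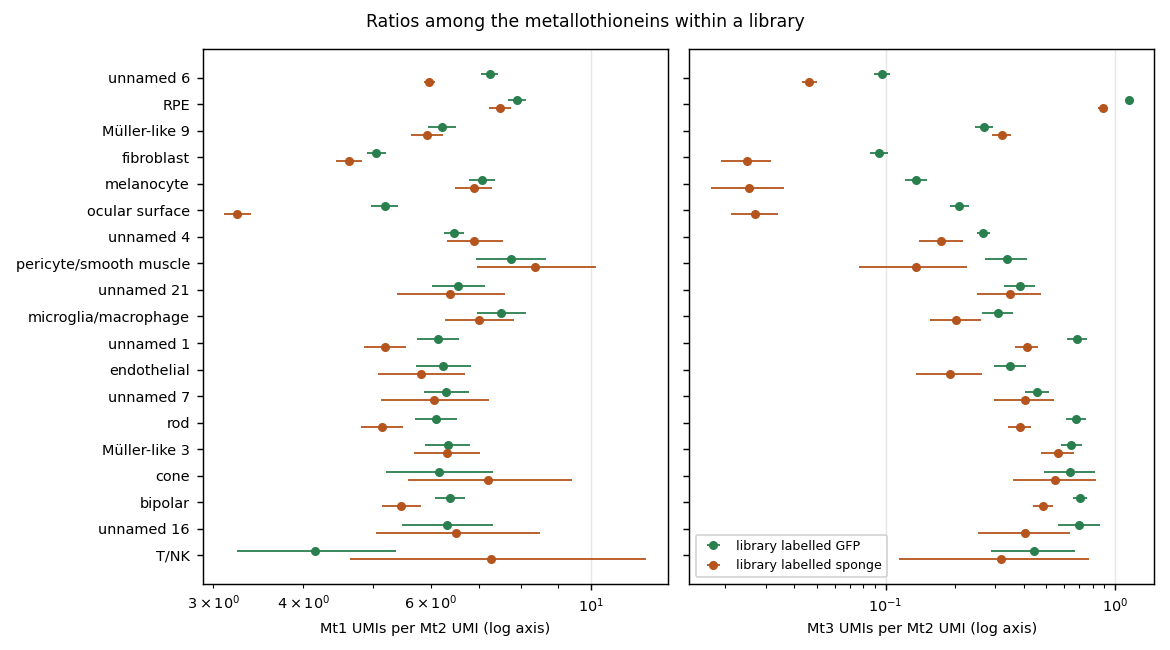
Mt1 UMIs per Mt2 UMI (left) and Mt3 UMIs per Mt2 UMI (right) in each class, both on log axes, with 95% exact conditional binomial intervals. The left ratio lies between 3.24 (ocular surface epithelium) and 8.38 (pericytes or smooth muscle), both in the library labelled sponge, while the right one falls from 1.16 in RPE-like cells to 0.0249 in fibroblasts.

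Droplet libraries hold free RNA that adds UMIs of every abundant gene to all cells. The members were therefore set beside markers of RPE, Müller glia and rods. These lists are not exclusive: Rlbp1 stands in those of both RPE and Müller glia. The level of each of 9 RPE markers was taken as a percent of its highest class, which was RPE for all but Rlbp1 in the library labelled sponge. Outside RPE, among named classes, the median marker stood at 1.42% (Müller-like cluster 9) to 5.12% (ocular surface epithelium) in the library labelled GFP and at 0.200% (ocular surface epithelium) to 1.17% (rods) in that labelled sponge. Mt3 stood at 6.23% (melanocytes) to 20.3% (Müller-like cluster 9), and at 1.28% (ocular surface epithelium) to 15.001% (Müller-like cluster 9). In each of these classes Mt3 was above the median RPE marker. Rods, at 11.0% and 5.98%, had more Mt3 than their median RPE marker at 2.85% and 1.17%. Müller genes outside glia and RPE were more spread: their median was 15.8% to 29.1% of the highest class in the first library and 5.06% to 13.0% in the second. Rod genes outside rods were more spread still. Their median was 20.2% (RPE-like cells) to 70.8% (cones) in the library labelled GFP and 6.44% (ocular surface epithelium) to 47.7% (cones) in the other. Whether cones make part of these transcripts themselves was not tested. Mt1 in rods was 14.5% and 9.49% of the RPE-like level. The part of free RNA in the neurons' Mt1, Mt2 and Mt3 was not tested.

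**Figure D3:**
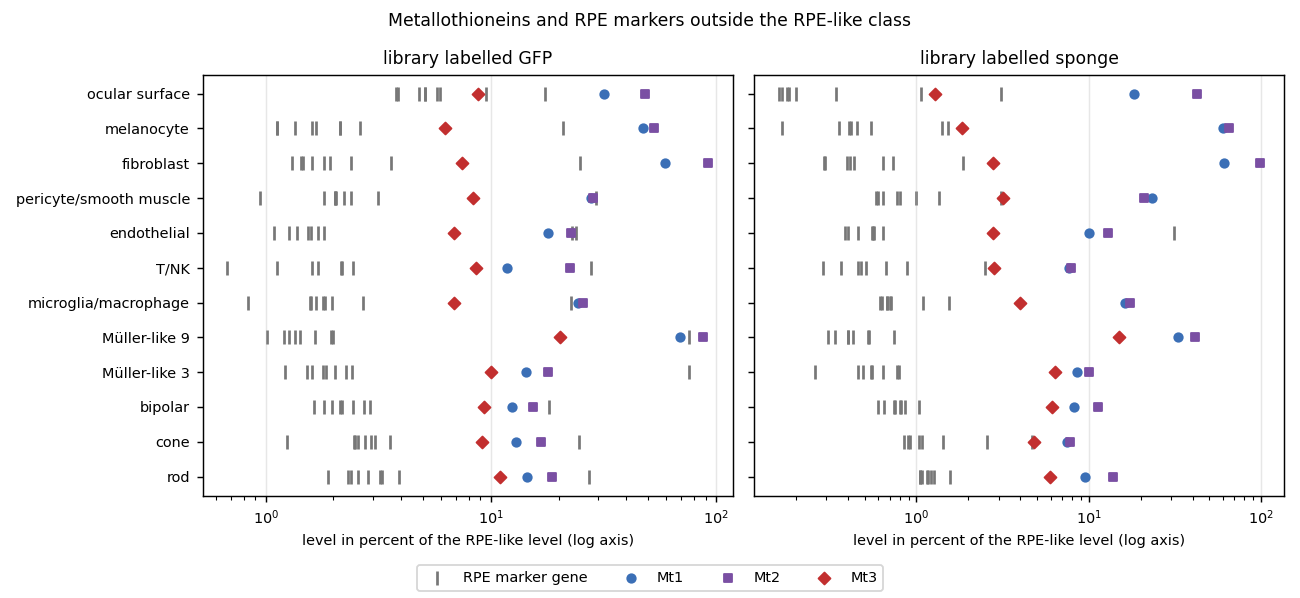
Level of each RPE marker gene detected (grey ticks) and of Mt1, Mt2 and Mt3 (symbols) outside the RPE-like class, in percent of the level in RPE-like cells of the same library (log axis). Mt3 lies to the right of the median tick in every class, from 6.23% to 20.3% on the left and from 1.28% to 15.001% on the right; the tick that lies far right in Müller-like cells of the left panel is Rlbp1, which glia also express.

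To compare cells at 1 depth, each cell was thinned at random to 1000 UMIs. After thinning, a UMI of Mt1 was present in 93.3% (91.6–94.8) of 1002 RPE-like cells from the library labelled GFP, and in 87.1% (83.9–89.98) of 490 from that labelled sponge, against 98.6% and 96.6% unthinned. In rods the share was 52.6% and 31.5%, and in T or NK cells 45.7% and 21.1%. Mt3 was present in 45.1% (42.0–48.3) and 28.0% (24.0–32.2) of thinned RPE-like cells, against 8.79% and 2.76% of rods and 7.61% and 1.11% of T or NK cells. Thinning left out 15 and 7 RPE-like cells, 150 and 110 rods and 2 and 2 T or NK cells. The shares fell in the same order as the levels.

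The spread between thinned cells also differed by class. In rods and bipolar cells of the library labelled GFP the variance of Mt1 UMIs was 1.15 and 1.23 times its mean, near the 1 of pure counting. It was 2.68 times in RPE-like cells, 4.90 in fibroblasts, 5.26 in unnamed cluster 6 and 6.89 in Müller-like cluster 9. With the sponge label the values were 1.09, 1.22, 2.66, 4.39, 4.19 and 2.84. The highest single cell held 37 Mt1 UMIs of its 1000, in Müller-like cluster 9 of the library labelled GFP; another held as many in unnamed cluster 21. In cluster 9 the median cell held 2 and the top 10% of cells held 43.5% of the UMIs. In the same cluster of the library labelled sponge the median was 1 and the highest cell held 15.

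Between the libraries, each member was lower with the sponge label in nearly all classes by CPM. The log2 ratio (sponge over GFP, 0.5 added to both counts) of Mt1 was below 0 in 19 of 19 classes and clusters and past 2-fold, below -1, in 12. Mt2 was below 0 in 18 of 19 and below -1 in 9, and Mt3 was below 0 in 19 of 19 and below -1 in 17. Among all genes with at least 20 UMIs in a class, 1.88% (unnamed cluster 1) to 23.5% (ocular surface epithelium) were below -1. The share was 6.45% in bipolar cells, 4.35% in cones, 5.93% in endothelium, 11% in melanocytes, 8.6% in microglia and macrophages, 5.51% in pericytes and 6.53% in T or NK cells. In unnamed clusters 4, 7, 16 and 21 it was 4.02%, 3.45%, 4.74% and 3.99%. These classes share the same 2 libraries. The median log2 ratio over all genes of a class ran from -0.37 (ocular surface epithelium) to 0.14 (unnamed cluster 1). The share of genes lower than Mt1 was 0.741% (unnamed cluster 7) to 45.5% (melanocytes). For Mt2 it was 0.814% (unnamed cluster 7) to 61.7% (unnamed cluster 6), and for Mt3 0.248% (unnamed cluster 16) to 20.6% (RPE-like cells). Some Mt1 and Mt2 values below 0 thus lay near the middle of their class. With classes set by the highest marker score instead of by cluster, Mt1 and Mt2 were below 0 in 10 of 12 classes and Mt3 in 12. The exceptions were melanocytes, with Mt1 at 3783 CPM in the first library and 5192 CPM in the second (0.46) and Mt2 at 0.70, and pericytes, with Mt1 at 0.09 and Mt2 at 0.31. With a stricter filter on cells Mt1 was above 0 in unnamed cluster 6, at 0.083. Over all cells 1 of the 3 members was below -1, Mt3 at -1.18, where 2.73% of genes were; Mt1 stood at -0.45 and Mt2 at -0.28.

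Müller-like cluster 9 had the largest Mt1 difference of the named classes. Mt1 went from 3728 to 1257 CPM, a log2 ratio of -1.57 (-1.60 to -1.53), Mt2 from 600.0 to 212 CPM, -1.50 (-1.59 to -1.41), and Mt3 from 161 to 68.0 CPM, -1.24 (-1.41 to -1.07). All 3 were below -1, where 6.29% of the cluster's genes were. In Müller-like cluster 3 all 3 were below -1 too, at -1.26, -1.26 and -1.45, where 8.25% of genes were. In the finer cluster that held most of its cells, 2177 and 123 of the libraries labelled GFP and sponge, Mt2 alone was below -1. There Mt1 was at -0.83 (-1.07 to -0.60), Mt2 at -1.23 (-2.003 to -0.61) and Mt3 at -0.39 (-1.12 to 0.19). Its Mt2 and Mt3 rested on 19 and 22 UMIs in the library labelled sponge. In another finer cluster mostly of these cells, with 460 and 983, all 3 were below -1. There Mt1 was at -1.05 (-1.15 to -0.94), Mt2 at -1.05 (-1.31 to -0.77) and Mt3 at -1.38 (-1.72 to -1.04). Rods had 2 of 3 below -1 (4.15% of genes), Mt1 at -1.12 and Mt3 at -1.68, with Mt2 at -0.87. In RPE-like cells none of the 3 was below -1 (15.5% of genes): Mt1 stood at -0.50, Mt2 at -0.42 and Mt3 at -0.80. Fibroblasts had Mt1 at -0.46 and Mt2 at -0.33, and only Mt3, at -2.23, below -1 (8.1% of genes). Unnamed cluster 6 had Mt1 at -0.22 and Mt2 at 0.06 (0.02 to 0.10), and Mt3 at -0.99, so none passed 2-fold (8.71% of genes). The rod genes used to gauge free RNA, which are foreign to Müller glia, had a median log2 ratio of -0.83 in cluster 9 and -1.07 in cluster 3; their part in the metallothionein ratios was not tested.

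These ratios turn on how the libraries are scaled, since cells with the sponge label held more UMIs. Counted as UMIs per cell, Mt1 in Müller-like cluster 9 was 13.3 in the library labelled GFP and 11.6 in that labelled sponge, a log2 ratio of -0.20 in place of -1.57, while mean UMIs per cell were 2.57 times higher with the sponge label. Mt1 in RPE-like cells was 39.3 and 54.5 UMIs per cell, in unnamed cluster 6 it was 29.3 and 78.5, and in bipolar cells 1.66 and 1.85: in these 3 the direction turned. It did not turn in rods, at 1.34 and 0.941 UMIs per cell. Mt1 per cell was lower with the sponge label in 8 of 19 classes and clusters. At matched depth, in cells with 2000 to 4000 UMIs, the CPM ratio of Mt1 was -1.24 in Müller-like cluster 9, -0.93 in rods, -0.30 in RPE-like cells and -0.16 in fibroblasts. Mt3 at that depth stood at -1.06, -1.50, -0.90 and -1.12 in the same classes. The counts past 2-fold, here with the sums over all cells and over the Müller-like clusters included, fell under both scales. At matched depth 4 of 10 Mt1 values, 3 of 6 Mt2 values and 11 of 14 Mt3 values that could be computed stayed past 2-fold. As UMIs per cell, 0 of 13, 0 of 9 and 7 of 19 did.

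**Figure D4:**
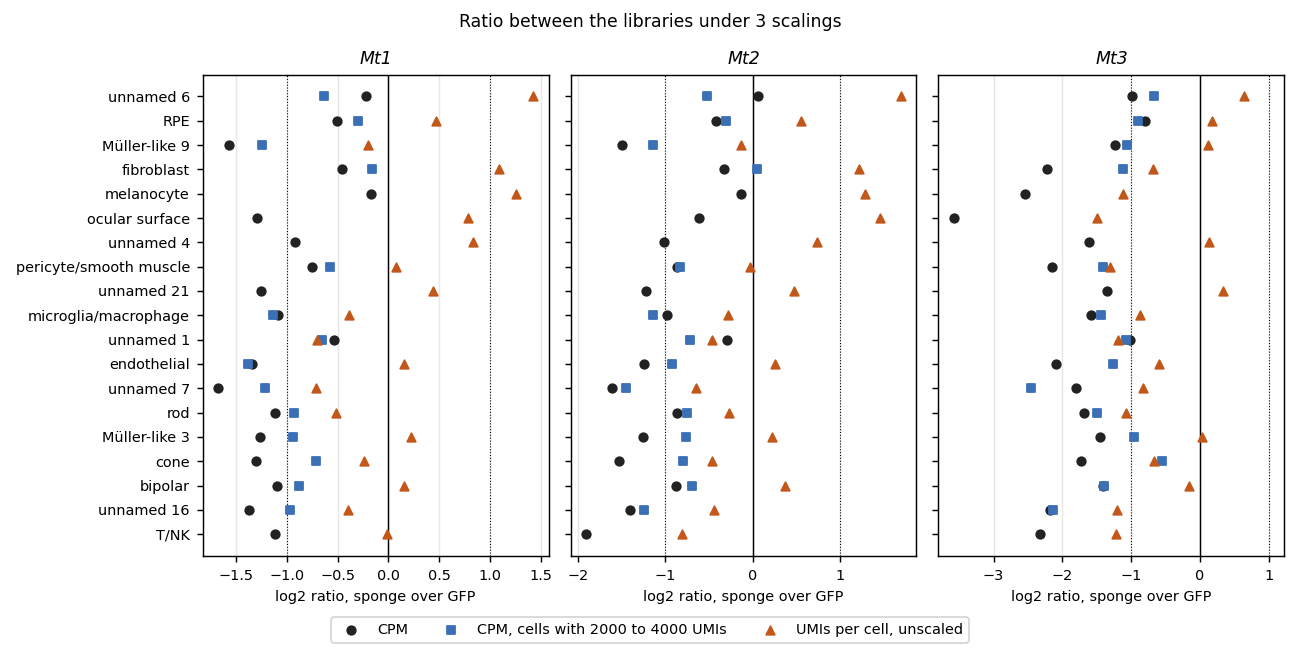
Log2 ratio of each member between the libraries (sponge over GFP) by CPM, by CPM in cells of 2000 to 4000 UMIs, and by UMIs per cell without scaling; dotted lines mark 2-fold, and squares are left out where a library had too few cells of that depth. Circles and squares lie mostly left of 0 and triangles on both sides, as in Müller-like cluster 9, where Mt1 is at -1.57, -1.24 and -0.20.

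Within Müller-like cluster 9 of the library labelled GFP the metallothioneins were higher in cells with a UMI of an acute-phase gene. With cells thinned to 1000 UMIs, in the library labelled GFP 440 cells with an Lcn2 UMI had 5902 CPM Mt1 (5677–6134), against 2009.8 CPM (1899–2125) in 611 cells without. For Mt2 the values were 891 CPM (805–984) and 242 CPM (205–285), and for Mt3 209 CPM (169–256) and 118 CPM (92.2–148). Split by Serpina3n, a serine protease inhibitor of reactive glia, Mt1 was 6637 CPM (6318–6967) in 245 cells with a UMI and 2728 CPM (2615–2845) in 806 without. Split by Gfap it was 4892 CPM (4369–5461) in 65 cells with and 3557 CPM (3440.0–3677) in 986 without. A single UMI can come from free RNA: after thinning, Lcn2 was present in 12.3% of bipolar cells and 15.7% of rods of this library, against 41.9% of cluster 9. In Müller-like cluster 3, 335 of 2672 thinned cells had an Lcn2 UMI; Mt1 was 1125 CPM in those and 729 CPM in the rest, and Mt2 was 134 CPM (98.0–180) and 125 CPM (111–140). The part of free RNA in these splits was not tested.

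Few cells of the library labelled sponge held these genes. Lcn2 in cluster 9 was 4489 CPM in the library labelled GFP and 151 CPM in that labelled sponge, and fewer than 50 thinned cells of the latter had an Lcn2 or a Serpina3n UMI. Cells without an Lcn2 UMI had 2009.8 CPM Mt1 in the first library and 1171 CPM (1101–1245) in the second. The corresponding Mt2 values, 242 CPM (205–285) and 198 CPM (169–229), had overlapping intervals. Gfap itself was 98.999 CPM and 182 CPM, and cells with a Gfap UMI had 4892 and 1790.3 CPM Mt1 (1473–2156). Lcn2 was lower with the sponge label in other classes too, at 317 and 3.41 CPM in melanocytes and 132 and 3.26 CPM in bipolar cells; the Mt1 log2 ratio of melanocytes was -0.17.

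**Figure D5:**
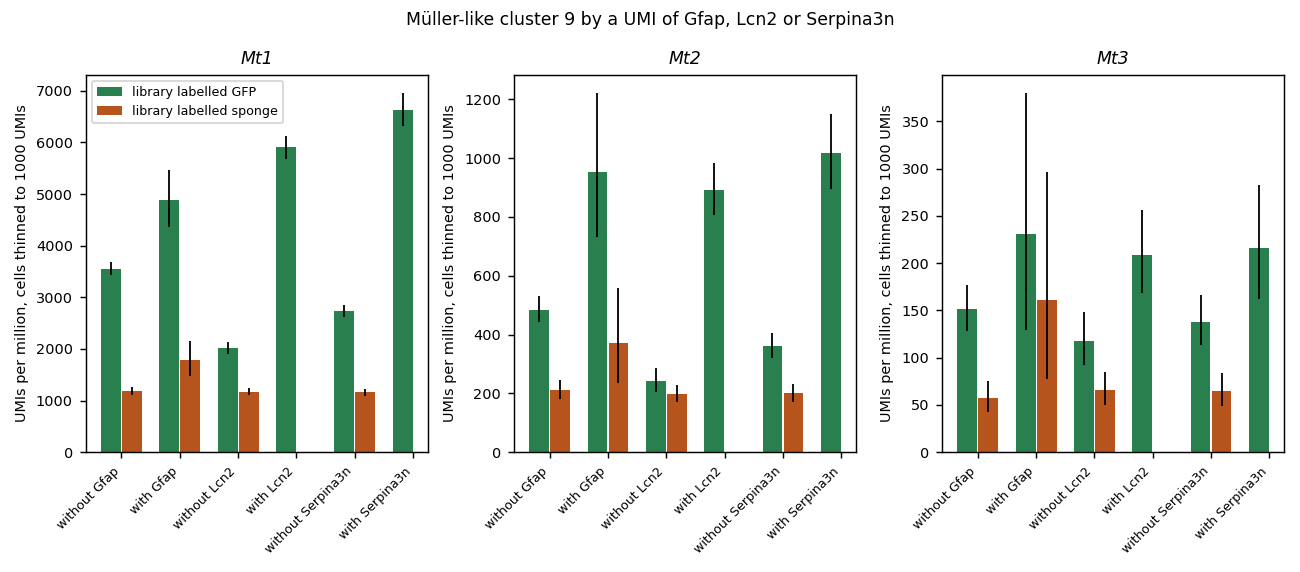
Mt1, Mt2 and Mt3 in Müller-like cluster 9, in CPM of cells thinned to 1000 UMIs, for cells without and with a UMI of Gfap, Lcn2 or Serpina3n; bars are sums with 95% Poisson intervals, and sets of fewer than 50 cells are not drawn. Mt1 in the library labelled GFP rises from 2009.8 without to 5902 with an Lcn2 UMI, and the sponge-labelled cells lie lower in each set drawn.

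A finer clustering gave a group of high and a group of low median UMIs, both mostly of RPE-like cells, that the libraries filled differently. Some of their cells lay outside the RPE-like class, which held 1017 and 497 cells. The first, led by Ttr, Rgr, Rpe65 and Lrat, had 813 cells of the library labelled GFP (median 7398 UMIs) and 162 of that labelled sponge (median 24912.5 UMIs), and the second had 229 (median 1701) and 385 (median 1954). The second was led by eGFP of the vector and by genes that interferon induces, such as Iigp1 and Ubd, beside the RPE genes Trf, Ttr, Rgr and Rdh5. In the high-median group Mt1 was 5483 and 3665 CPM, a log2 ratio of -0.58 (-0.61 to -0.55), and Mt3 was 812 and 586 CPM, -0.47 (-0.54 to -0.40). In the low-median group Mt1 was 3913 and 3997 CPM, 0.03 (-0.04 to 0.10), while Mt3 was 473 and 213 CPM, -1.16 (-1.37 to -0.93). The Mt1 interval of the low-median group spans 0, and the other 3 intervals lie below it. Summed RPE markers without Rlbp1 were at 47700 and 78115 CPM in the high-median group, and 29845 and 42988 CPM in the low-median one.

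The vector's eGFP was concentrated in RPE-like cells of the library labelled sponge, at 669 CPM against 9.17 CPM in rods. After thinning, 81 RPE-like cells of this library had an eGFP UMI and 409 had none. With all their UMIs counted, the 81 cells had 4457 CPM Mt1 (4353–4564) and 311 CPM Mt3 (284–340), and the 409 cells had 3632 CPM Mt1 (3582–3682) and 494 CPM Mt3 (476–513). The split is by a UMI kept in thinning, so the 409 cells were not free of eGFP: with all UMIs counted they held 811 eGFP UMIs, or 146 CPM, against 2529 CPM in the 81. Within the low-median group, with 63 and 264 cells, Mt1 was 4962 and 3479.6 CPM and Mt3 was 176 CPM (151–204) and 243 CPM (219–270). In these 63 and 264 cells summed rod genes were 2751 and 6938 CPM, the median mitochondrial share was 7.52% and 10.1%, and the median UMIs were 4517 and 1998. Within the high-median group, with 17 and 145 cells, Mt3 was 575 CPM (512–644) and 587 CPM (564–611), within counting error, and Mt1 was 3484 and 3688 CPM. Depth moved with the split: the median was 9333 UMIs in the 81 cells and 3151 in the 409, and the part of depth, rod RNA and mitochondrial share was not tested.

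Few genes of zinc handling passed 2-fold in the Müller-like clusters, and few of all genes there did. A count of 0 in lists this short does not set them apart from all genes. Beside a background of 2.96% of genes above 1 and 6.29% below -1 in Müller-like cluster 9, of the metal-sensing list (Mtf1, Mtf2, Slc30a1, Slc30a10 and Slc39a10), 5 of 5 were measured in Müller-like cluster 9 and 0 passed 2-fold; Mtf1, which drives Mt1 and Mt2, was 27.9 CPM in the library labelled GFP and 21.2 CPM in that labelled sponge, -0.40 (-0.75 to -0.04). Slc30a1, a zinc exporter that MTF1 also drives, was 12.9 and 15.1 CPM, 0.22 (-0.25 to 0.74). Of the ZnT zinc exporters 7 of 10 and of the ZIP zinc importers 11 of 14 were measured there, and 0 passed 2-fold. In Müller-like cluster 3 (1.91% of genes above 1 and 8.25% below -1) the same held but for 1 importer. This was Slc39a12, below -1 at 2.68 and 1.23 CPM, with fewer than 50 UMIs over both libraries. Median log2 ratios in cluster 9 were 0.22 (metal sensing), 0.20 (exporters) and -0.12 (importers), beside 0.04 over all genes. The genes that flank the locus, Bbs2 and Nup93, had log2 ratios of 0.04 (-0.34 to 0.43) and 0.34 (-0.19 to 0.93) in cluster 9, both within 2-fold.

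Among 13 copper genes in cluster 9, 1 was below -1 and 0 were above 1, beside 6.29% and 2.96% of all its genes. The same shares stand beside the other lists of cluster 9 below. A single call in lists this short does not set a list apart from them. The copper gene below -1 was Steap4, a metalloreductase that inflammatory cytokines induce, at 246 and 28.2 CPM, -3.13 (-3.34 to -2.92). Cox17, a copper chaperone of mitochondria, stood at -0.79 and Cp, the copper oxidase ceruloplasmin, at -0.67. Of other clusters named after their values were seen, 5 of 11 measured copper genes were below -1 in unnamed cluster 16 (4.74% of its genes, list median -0.97) and 3 of 13 in bipolar cells (6.45% of genes, list median -0.32). Of 14 genes of the STAT3 and acute-phase list, 5 were below -1, among them Lcn2 at -4.90, Timp1 at -3.28 and C3 at -3.26, and 1 was above 1, Junb at 1.14. Steap4 is on the copper list as well. Of 10 iron genes 1 was above 1, the iron exporter Slc40a1 at 1.20 (0.22 to 2.47) on 9 and 48 UMIs, and 0 were below -1. Of 15 glutathione and NRF2 genes 0 passed 2-fold, and Srxn1, which repairs oxidised peroxiredoxins, came nearest at 0.98. Glucocorticoid-response genes had 1 of 12 above 1, Dusp1 at 1.001 (0.92 to 1.08), and 1 below, Sult1a1 at -1.43 with fewer than 50 UMIs over both libraries. Fkbp5, a classic glucocorticoid target, was 10.8 and 9.94 CPM. Dissociation-stress genes had 5 of 18 above 1 and 2 below: Btg2 was at 1.39 and Ier2 at 1.21, while the heat shock genes Hspa1b and Hspb1 were at -1.16 and -1.13. Junb and Dusp1, already counted in the STAT3 and glucocorticoid lists, are among these 5, so the lists are not separate.

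The genes most like each member across the 26 profiles, among 12305 genes at 20 CPM or more in at least 1 profile, were ranked by Pearson r. For Mt1 they were Skp1a (0.87), Tmem256 (0.85), Uqcr11 (0.85), Hsbp1 (0.83) and Elob (0.82), genes present in all classes, and none came near the r of 0.97 with Mt2. For Mt2 they were Skp1a (0.88), Uqcr11 (0.78), Elob (0.78), Adamtsl4 (0.78) and Pdpn (0.77). For Mt3 they were St13 (0.93), Lalba (0.90), Ghitm (0.89), Gm31356 (0.87) and Rpe65 (0.87). Rpe65, the isomerase of the visual cycle, is itself one of the RPE markers. Lalba, known for its product in milk, was 256 and 42.7 CPM in RPE-like cells and 4.74 and 1.06 CPM in Müller-like cluster 9.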

How the data were processed

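The deposited matrices hold UMI counts per gene and cell barcode, made by the authors with Cell Ranger 7.0.0 on mm10, per the submitters' processing notes. Filters and aligner settings beyond that are not given in the sources used here. Barcodes with at least 500 UMIs, at least 300 genes and at most 25% mitochondrial UMIs were kept, which removed 176 of 39461 and 67 of 23267. Scrublet called 0 doublets in either library and so did not work; no cell was removed as a doublet.

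Cells of both libraries were clustered together without the metallothionein genes (scanpy 1.11.5, 2000 variable genes, 30 principal components, 15 neighbours, Leiden resolution 1). A cluster was named for its best class when at least 3 fixed markers of it were 2-fold over the lower quartile of all clusters. No unrelated class could score close to it. Its top 10 genes had to hold more markers of that class than of any unrelated class, or none of the latter. A tie thus left cluster 6 unnamed, with 2 melanocyte markers and 2 of an unrelated class. Clusters with a low marker score, or of low depth without an own marker among the top 10 genes, also stayed unnamed. Haemoglobin genes were not counted. The details of this naming rule were set after the clusters were seen. Names are rebuilt and may differ from those of the study. UMIs of each class were added up in each library and divided by the class total (CPM), with exact Poisson intervals for levels, exact (Clopper-Pearson) binomial intervals for shares and exact conditional intervals for ratios. UMIs limit amplification copies, but intervals cover counting error only. The code for ratios and intervals was tested on simulated data. With 1 library per group no test was run, and p-values are not given.

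Genes named in the text are the members, Mt4, neighbours of the locus (1 is not reported here), the 5 genes with the highest r to each member, and from the gene lists those at either end of the log2 ratio; genes named beside these were chosen after their values were seen. The members and the gene lists were chosen with earlier results of these data known. Alternatives varied the cell filter, scaling, cell weights, depth, doublet scores, added count, clustering and naming.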

Additional observations from a re-analysis of the deposited data

Results flagged for a closer look

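Mt2 in unnamed cluster 6 moved against the rest: its log2 ratio between the libraries was 0.059 (0.02 to 0.10), higher with the sponge label, while its intervals lay below 0 in the 18 other classes and clusters compared. The difference between cluster 6 and the other classes was not tested, as each group is 1 library. The finer clustering divided cluster 6 into a part with 779.8 and 863 CPM Mt2, 0.15, and a part with 1023 and 958 CPM, -0.10, so the sign was not shared by its parts. With cells thinned to 1000 UMIs, Mt2 in cluster 6 was 917 CPM in the library labelled GFP and 903 CPM in that labelled sponge. The sign thus did not hold under thinning.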

How the results depend on the processing

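Values are log2 ratios, sponge over GFP, in the order Mt1, Mt2 and Mt3. Over all cells they were -0.50, -0.33 and -1.31 with a stricter filter on cells, -0.40, -0.23 and -1.13 without the 10% highest doublet scores, and -0.50, -0.33 and -1.23 over totals without mitochondrial and haemoglobin genes. Mt1 and Mt2 were -0.48 and -0.31 with median-of-ratios scaling, -0.83 and -0.66 with cells weighted equally, and -0.82 and -0.65 with cells thinned to 1000 UMIs. In Müller-like cluster 9, Mt1 and Mt2 were -1.64 and -1.61 with the stricter filter. Mt1 was -1.62 with median-of-ratios scaling and -1.62 over the reduced totals, Mt2 was -1.40 with equal weights and -1.21 thinned, and Mt3 was -1.45 at resolution 2.

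Scaling by UMIs per cell, matching depth, and summing the Müller-like clusters were chosen after seeing the data. In cells with 2000 to 4000 UMIs the values were -1.56, -1.43 and -1.23 over all cells and -1.24, -1.15 and -1.06 in Müller-like cluster 9. As mean UMIs per cell they were 0.41, 0.58 and -0.32 over all cells and -0.20, -0.14 and 0.12 in cluster 9. Values that passed 2-fold by CPM and turned as UMIs per cell included Mt1 in bipolar (0.15), endothelial (0.16) and ocular surface cells (0.78). Mt2 in endothelial cells (0.26) and Mt3 in Müller-like cluster 9 (0.12) did so too. All 3 turned in Müller-like cluster 3 (0.22, 0.23 and 0.029) and in unnamed cluster 21 (0.43, 0.47 and 0.34). Mt2 and Mt3 turned in unnamed cluster 4 (0.74 and 0.14), and Mt1 and Mt3 in the summed Müller-like clusters (0.57 and 0.39). More UMIs per cell with the sponge label enter that scale by construction. No paired analysis was possible because each group is 1 library. No replicate could be left out for the same reason.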
